A study of Homo sapiens with 18 samples.

Results

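The HOX gene clusters were examined in HEK293T cells, a transformed human line of embryonic kidney origin. The members were the 39 protein-coding genes of GENCODE release 44 named HOXA, HOXB, HOXC or HOXD followed by a number, out of 19111 protein-coding genes on chromosomes 1 to 22. They lie in 4 clusters: HOXA with 11 genes on chromosome 7, HOXB with 10 on chromosome 17, HOXC with 9 on chromosome 12 and HOXD with 9 on chromosome 2. Each cluster was taken from its first to its last gene with 50 kb added on either side, and each promoter as the 1 kb on either side of the transcription start site (TSS). The 4 windows measured 207 kb for HOXA, 300.2 kb for HOXB, 217 kb for HOXC and 198 kb for HOXD, together 0.0321% of the autosomes. They held 808 of the 506359 peaks in 12 lists.

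ChIP-seq (chromatin immunoprecipitation with sequencing) had been performed for the histone mark H3K27ac and for the DNA-binding protein CTCF in 4 groups of 3 libraries. Cells of the CTRL groups were untreated, and cells of the VPA groups had been cultured with 1 mM valproic acid, an inhibitor of histone deacetylases, for 1 day. All groups come from the same line, which limits what they represent to that line, and no genotype differs between them. The 6 input libraries were not analysed here.

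HOX genes encode homeodomain transcription factors that give cells their position along the body axis, and genes of the 4 clusters with the same number are paralogues. Their order along the chromosome follows the order in which they are used along the axis, and whole stretches of a cluster are switched between a Polycomb-silenced and an active state. Acetylation of lysine 27 of histone H3 marks active promoters and enhancers. CTCF binds a directional motif, and its sites within HOX clusters are known as places where active and silenced stretches meet.

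The question was how far the clusters were acetylated in these cells, where CTCF lay within them, and how both compared after VPA. The CTCF sites are shown first, since the rest of the description refers to them. Each line gives 30 bases of hg38 on the strand of the motif, 5′ to 3′, with the best match to the CTCF core motif in capitals. The sites chosen have a CTCF peak in all 6 lists and stand for each cluster and its flanks.
HOXA5 promoter, chr7:27143906-27143935, minus strand: ccctgcctCCAGCGGGTGGCGCtcgagtcc
HOXA7 to HOXA9, intergenic, chr7:27161128-27161157, minus strand: aacggcggCCAGCAGATGGCAGtgtggctc
HOXA10 promoter, UTR, chr7:27179896-27179925, minus strand: cgcagccgCCACGAGATGGCGCacttccga
HOXA13 flank, near site, intergenic, chr7:27210440-27210469, plus strand: catccaatCCAGGAGGTTGCAGtcgctgtg
HOXA13 flank, far site, intergenic, chr7:27235507-27235536, plus strand: ggcgatcgGCAGTGGGGGGCGCaccaagac
HOXB1 flank, intergenic, chr17:48492669-48492698, plus strand: agaggccgCCGCTAGGGTGCAGctgtgggc
HOXB5 promoter, intron of HOXB3, chr17:48594031-48594060, minus strand: gtcggtcgCCGGGAGGTGGCGCgctctgct
HOXB8 upstream, intron of HOXB7, chr17:48618736-48618765, minus strand: cagagcagCCGCTAGATGGCACccttgctc
HOXB7 to HOXB13, intron of LINC02086, chr17:48678592-48678621, plus strand: tcgggcggCCGGCAGGGGTCAGtgtttggc
HOXC10 promoter, intron of HOXC-AS3, chr12:53984966-53984995, plus strand: cgaggcagCTGCTAGATGGCGCtgttactc
HOXC5 promoter, intron of HOXC4, chr12:54032734-54032763, plus strand: ccacatagGCACCAGGTGTCGCtgtgggct
HOXD13 flank, UTR of EVX2, chr2:176079982-176080011, minus strand: tgccgctgCCGCCAGGGGGCGCcccggggc
HOXD13 to HOXD12, intergenic, chr2:176097749-176097778, minus strand: cccaatgcCCAGGAGATGGCGAgcgcgctc
HOXD3, intron, chr2:176140637-176140666, plus strand: cgcctcgtCCAGGAGGAGGCGCtgtaggac

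The background coverage recovered from the peak values lay between 3.51 and 3.95 fragments in the 12 libraries, and read totals are unknown. Replicate 1 stood apart in both antibodies. Its lists were the shortest of each group, its H3K27ac peaks in the windows covered less ground, and its median H3K27ac fold enrichment over the 43 HOX regions described below was 12.05 in CTRL and 8.45 in VPA, against 17.03 to 30.7 in the other libraries. Results are therefore also given without it. The labels do not say that replicates came from separate cultures, so p-values measure only the spread between these samples. In bulk chromatin, fewer alleles with a mark and less of the mark per allele cannot be told apart. An H3K27ac peak at the TSS in all 6 lists was found at 58.1% of all protein-coding genes. Of 8 genes used as markers of embryonic kidney, 6 had one, among them LHX1 and GATA3, and this count was not tested against that share. PAX2, a defining kidney regulator, had none, and OSR1 had a peak in 1 CTRL list. Of 8 genes of liver, T cells, muscle, pancreas and erythroid cells, 0 had one in all 6 lists.

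The HOX clusters were densely acetylated. H3K27ac peaks covered 27.3%, 34.1% and 33.3% of the 4 windows in CTRL replicates 1, 2 and 3, whereas they covered 1.20% to 1.62% of the autosomes in the same libraries. HOXA had the largest covered share of its window in CTRL (41.6% ± 3.52, SD, n = 3), followed by HOXC (40.9% ± 7.08), HOXB (28.2% ± 2.34) and HOXD (16.0% ± 2.41). HOXA and HOXC did not differ beyond their spread, while HOXD lay below every other cluster in every library. Within the genes themselves, from the first to the last of a cluster, 64.3% of the HOXA bases lay under a peak in all 6 lists, against 46.7% in HOXC, 30.4% in HOXB and 21.8% in HOXD. Merging the peaks of the 6 lists gave 82 H3K27ac regions in the windows, of which 43 (52.4%) had a peak in all 6 lists, compared with 33.2% of all 55382 regions.

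**Figure D1:**
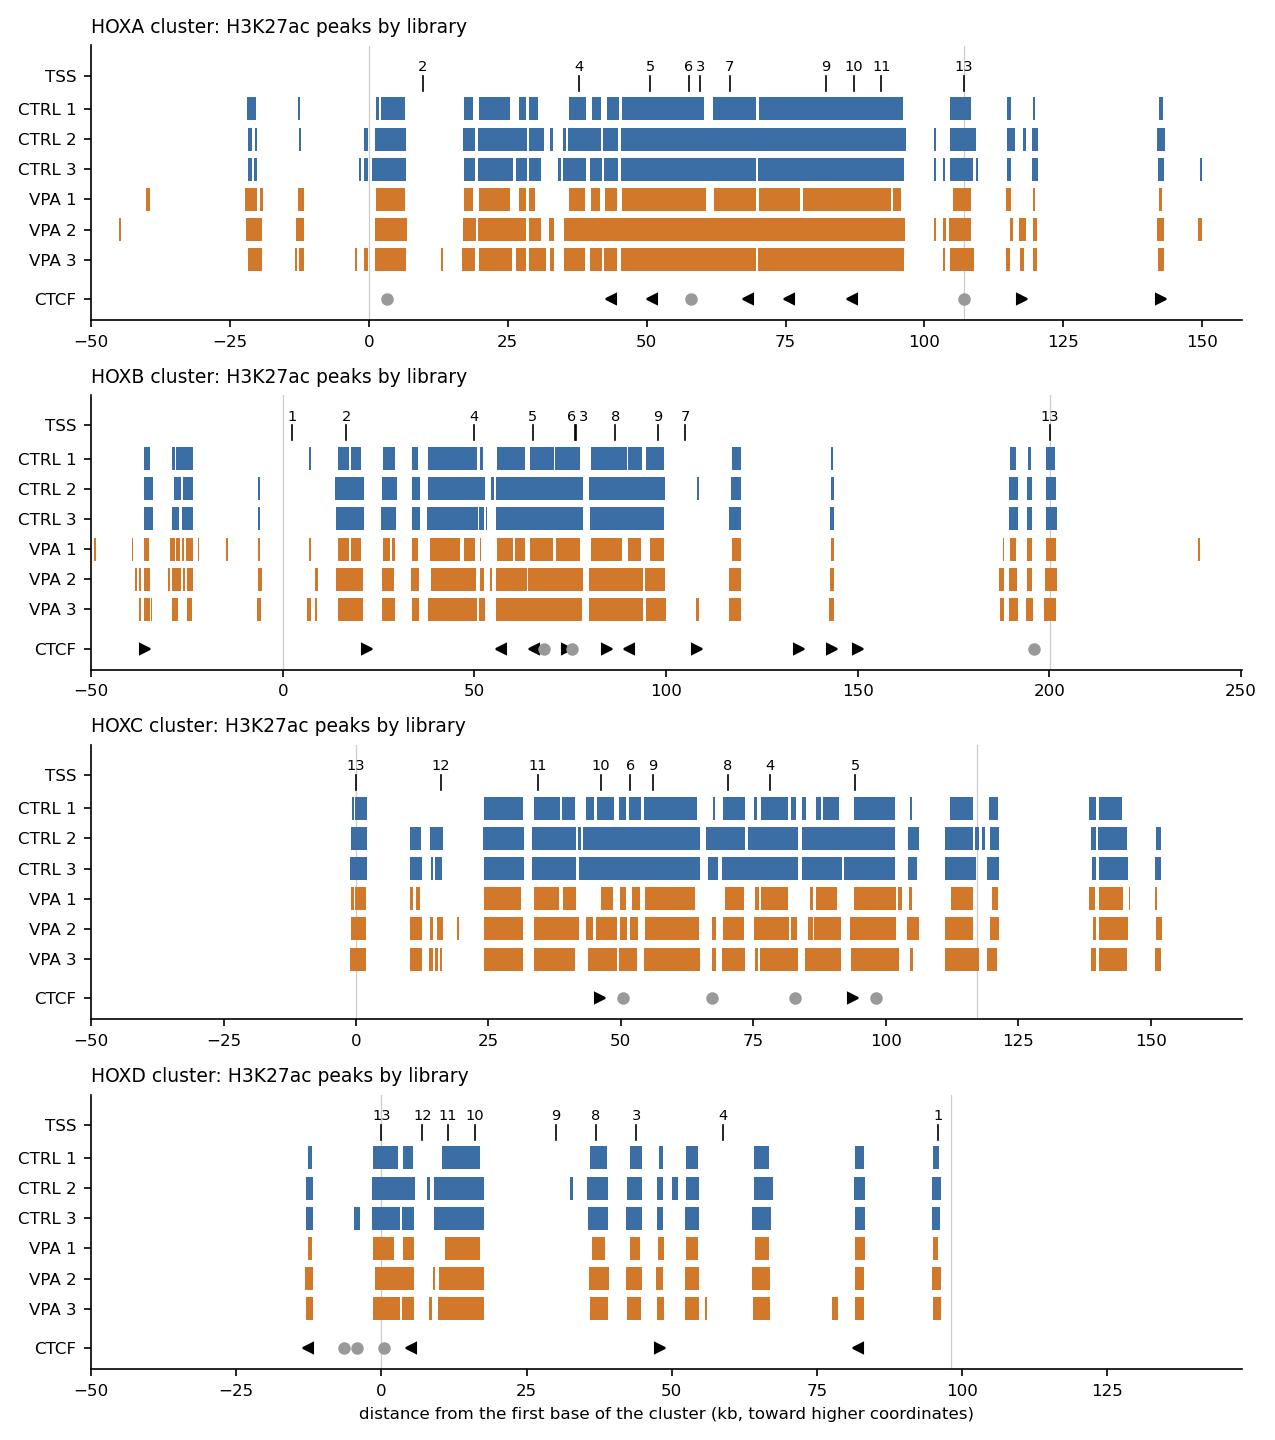
H3K27ac peaks of each library along the 4 HOX clusters, in kb from the first base of the cluster. Blue bars are CTRL peaks and orange bars VPA peaks; ticks on the top line of each panel are the TSSs of 38 of the 39 genes with their paralogue number, and the bottom line gives CTCF regions present in all 6 lists, as arrowheads in the direction of the motif or as grey circles where no match was found. Thin grey lines mark the ends of the cluster. HOXA is a nearly continuous block from HOXA4 to HOXA11, and HOXD is a series of separate peaks.

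The acetylated stretches of the HOX clusters were among the widest of the genome. Merged over the 6 lists, a region from HOXA4 to HOXA11 (chr7:27127960-27189635) spanned 61.7 kb and ranked 1 of 55382 by width. The widest peak in the windows measured 26.0, 51.3 and 26.2 kb in CTRL and 15.8, 61.2 and 26.2 kb in VPA. It was the widest of its list in 5 of 6 lists, and the exception was VPA replicate 1, where it ranked 3. Of the 109 regions of 10 kb or more with a peak in all 6 lists, 7 lay in the HOX clusters. Besides the HOXA block these were 3 regions in HOXC, of 31.7 kb around HOXC11, HOXC10, HOXC6 and HOXC9, 17.3 kb around HOXC8 and HOXC4, and 18.8 kb around HOXC5. The other 3 lay in HOXB, with 15.1 kb at HOXB4, 22.7 kb over HOXB5, HOXB3 and HOXB6 and 20.0 kb around HOXB8 and HOXB9. HOXD had none, and its widest region, over HOXD11 and the start of the HOXD10 gene model, measured 8.90 kb.

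Most HOX promoters carried the mark. An H3K27ac peak lay within 1 kb of the TSS of 32, 34 and 33 of the 39 genes in CTRL and of 32, 33 and 33 in VPA. Peaks were present in all 6 lists at 32 genes (82.1%), compared with 58.1% of all protein-coding genes, and in no list at 5 genes (12.8%), compared with 32.9%. By paralogue, every member of groups 3, 5, 6, 8, 10, 11 and 13 had a peak in all 6 lists, which spans anterior, central and posterior genes. In groups 4 and 9 the exception was the HOXD gene, in group 7 it was HOXB7 and in group 2 HOXA2. Neither of the 2 genes of group 12 had a peak in all 6 lists.

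The 5 genes with no promoter peak in any list were HOXA2, a regulator of hindbrain and branchial arch identity, HOXB1, which patterns the hindbrain, HOXB7, HOXD4 and HOXD9. The other 2 genes had a peak in some lists only, as did 8.99% of all genes. HOXC12 had a weak peak in 4 lists, with fold enrichments of 3.35 and 2.07 in CTRL replicates 2 and 3 and 4.58 and 3.201 in VPA replicates 2 and 3. HOXD12 had one in CTRL replicate 2 alone, at 2.41. Fold enrichment here is the ratio of the signal at the summit of a peak to its local background, as the authors' peak caller gave it. These promoters lay in stretches without a peak in any list. HOXA2 lay in a gap of 6.17 kb between acetylated regions, HOXB1 in 6.41 kb at the end of its cluster, HOXB7 in 7.93 kb, HOXD4 in 7.67 kb and HOXD9 in 14.8 kb, the longest gap of HOXD. The longest gaps of all were 2 stretches of 43.2 kb and 23 kb between HOXB7 and HOXB13, where no HOX gene lies. The call at some genes rested on the TSS used. With the TSS of any protein-coding transcript, HOXB7 had a peak in 6 lists, and HOXD10, which had 6 with the end of its gene model, had 0.

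The highest promoter values are given for 3 genes of each cluster. HOXA9, HOXA10 and HOXA11 lay under the same peak in each library, with fold enrichments of 35.5, 118 and 98.2 in CTRL and 14.9, 72.2 and 45.7 in VPA. Replicate 1 was lowest in both groups and the groups overlapped. In VPA replicate 2 a peak of 61.2 kb gave the same value to every gene from HOXA4 to HOXA11. HOXB9, a posterior gene of its cluster, had 33.5, 78.4 and 128 in CTRL and 16.0, 41.0 and 42.5 in VPA. Its neighbour HOXB8 had 32.5, 78.4 and 128 in CTRL and 10.6, 29.3 and 26.9 in VPA. Every VPA value lay below every CTRL value at HOXB8, but the values came from different summits. In coordinates from the HOXB8 TSS, the summits lay at -2120, 10697 and 10761 bp in CTRL. In VPA they lay at -4520, -4552 and -4536 bp. The 78.4 and 128 of CTRL are also the values of HOXB9. At HOXB9, CTRL replicate 1 lay below VPA replicates 2 and 3. HOXB3 and HOXB6, whose gene models start close together, shared their values of 25.9, 43.7 and 44.9 in CTRL and 22.04, 31.2 and 33.6 in VPA, and the groups overlapped.

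In HOXC the highest promoter was that of HOXC4, with 24.8, 74.7 and 68.7 in CTRL and 12.4, 29.9 and 34.5 in VPA. HOXC5 followed with 19.3, 86.9 and 55.0 in CTRL and 13.7, 29.0 and 29.7 in VPA. HOXC9 had 18.2, 60.4 and 56.8 in CTRL and 11.99, 24.9 and 27.3 in VPA. In each of the 3, CTRL replicate 1 lay below VPA replicates 2 and 3, so the groups overlapped. In HOXD, HOXD11 and the start of the HOXD10 gene model shared a peak of 38.98, 111 and 95.96 in CTRL and 16.5, 46.04 and 45.7 in VPA. There CTRL replicate 1 lay below VPA replicates 2 and 3. With the TSS of any protein-coding transcript, HOXD10 had a peak in 0 lists, so these values do not describe those starts. HOXD13, a regulator of digit and urogenital development, had 21.3, 38.6 and 57.8 in CTRL and 13.5, 39.5 and 28.5 in VPA. Since a wide peak has 1 summit, values of genes under the same block describe the block and not each promoter. The value shifts when the block is cut: at HOXC6, chosen after its values were seen, CTRL replicates 2 and 3 gave 60.4 and 56.8 from summits 9952 and 9918 bp downstream of the TSS. CTRL replicate 1 gave 4.05 and the 3 VPA libraries 3.41, 4.47 and 4.66, each from a separate peak with its summit close to 1 kb upstream.

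**Figure D2:**
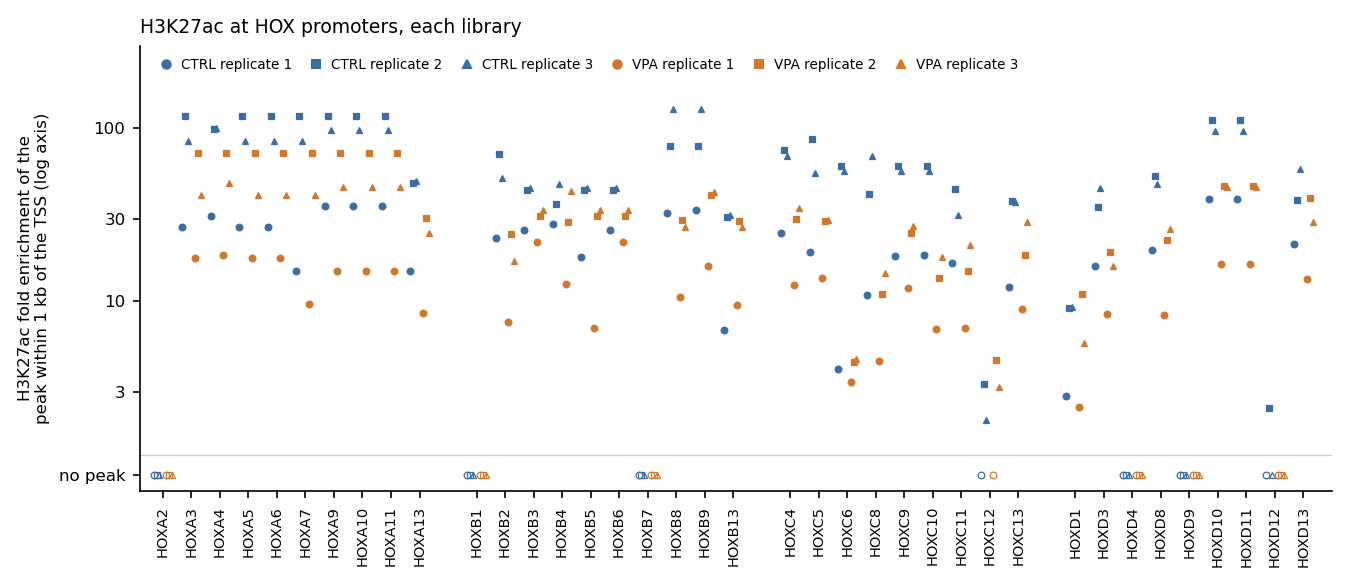
H3K27ac fold enrichment (log axis) of the highest peak within 1 kb of the TSS of 38 of the 39 HOX genes, in each library. Blue symbols are CTRL and orange symbols VPA, with circles, squares and triangles for replicates 1, 2 and 3; open symbols at the bottom mark libraries without a peak. HOXA2, HOXB1, HOXB7, HOXD4 and HOXD9 have no peak in any library, and most VPA values lie below the CTRL value of the same replicate number.

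After VPA the number of H3K27ac peaks in the windows was 90, 78 and 82, compared with 74, 67 and 69 in CTRL. Every VPA library lay above every CTRL library. The means were 83.3 ± 6.11 and 70.0 ± 3.61 (SD, n = 3), a ratio of 1.19. In an exact two-sided permutation test p was 0.1, the smallest value that 3 against 3 libraries allow, and 0.98 after Benjamini-Hochberg adjustment over 14 tests. Most of the difference lay in HOXB, where the CTRL lists had 21, 17 and 17 and the VPA lists 33, 25 and 23. In HOXC the numbers were 24, 18 and 17 before and 25, 25 and 22 after treatment. Over the same libraries the whole lists grew from 26299 to 29799 peaks in CTRL to 38441 to 40992 in VPA, so the HOX windows held 0.226% to 0.281% of a CTRL list and 0.190% to 0.234% of a VPA list. When every list was limited to the length of the shortest, the difference turned to 2.33 peaks fewer in VPA (exact permutation p = 0.7).

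The ground covered did not grow with the peak number. VPA libraries covered 26.2%, 32.6% and 32.6% of the windows, and the mean of 30.5% ± 3.67 did not differ from the 31.6% ± 3.73 of CTRL beyond the spread between libraries (exact permutation p = 0.5, n = 3). Within replicate numbers the difference was -1.06, -1.47 and -0.790 percentage points. Across the autosomes the covered share was higher in VPA, at 1.68% to 2.34%. In HOXC the share was 32.7%, 45.2% and 44.6% before treatment and 31.0%, 39.2% and 39.9% after it (means 40.9% and 36.7%, exact permutation p = 0.5). The share of HOXC was lower in VPA at each replicate number, but replicate 1 of CTRL lay below replicates 2 and 3 of VPA. The VPA means were 42.6% in HOXA, 27.8% in HOXB and 15.03% in HOXD, and exact permutation p-values against CTRL were 0.7, 0.7 and 0.5. Promoter calls hardly moved, with 0 HOX genes gaining or losing 2 or more lists (1.51% and 0.131% of all genes did).

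**Figure D3:**
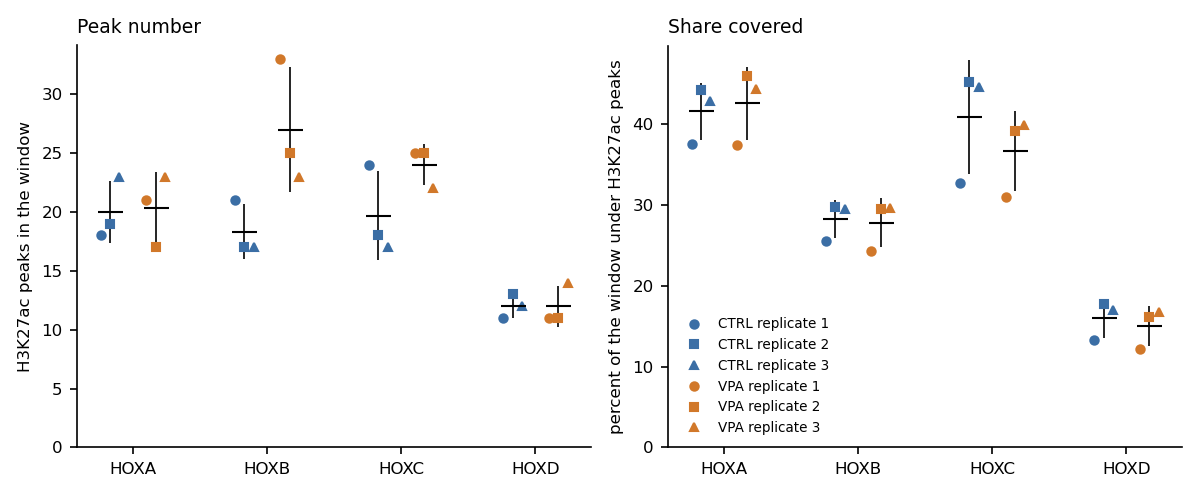
H3K27ac peaks per HOX window (left) and the percent of each window under H3K27ac peaks (right), for each library. Symbols are as in the promoter plot, with horizontal dashes for group means and vertical lines for 1 SD (n = 3). Peak numbers are higher in VPA in HOXB, while the covered shares of the groups overlap in every cluster.

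Peak heights were lower after VPA at most HOX regions. Over the 43 regions with a peak in all 6 lists, the median fold enrichment per library was 12.05, 30.7 and 27.7 in CTRL and 8.45, 18.8 and 17.03 in VPA. Over all 18407 such regions the medians were 7.63, 17.2 and 16.3 in CTRL and 7.52, 15.3 and 15.5 in VPA. The median log2 ratio of VPA to CTRL was -0.75 at HOX regions and -0.14 at all regions, and 40 of 43 HOX regions were lower in VPA against 62.03% of all. HOX regions were lower in VPA in 3 of 3 replicate numbers in 32 cases (74.4%), compared with 34.9% of all regions. A count of 1 HOX region was higher in all 3 numbers, compared with 17.3% of all regions. Every VPA library lay below every CTRL library at 4 HOX regions (9.30%), compared with 1.56% of all, and above at 0, compared with 4.53%.

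In limma fitted to all regions without the replicate number, 0 of the 43 HOX regions passed an adjusted p of 0.05 in either direction, as did 0% of all regions. At an unadjusted p of 0.05, 3 HOX regions were lower and 0 higher, and over all regions 45 were lower and 120 higher. In H3K27ac, deviations from the group means correlated at 0.865, 0.585 and 0.591 between libraries of the same number. Across numbers, replicates 2 and 3 correlated as much (0.607 and 0.554), so beyond replicate 1 the numbers did not pair. With the replicate number as a block, 22 HOX regions were lower and 0 higher at an adjusted p of 0.05 (limma), compared with 9.21% of all regions lower and 5.14% higher. The recovered number of fragments over the summit, divided by the background coverage of the library and fitted without the block, gave 27 HOX regions lower and 0 higher, compared with 14.4% and 3.96% of all regions. All 22 regions of the blocked fit were among these 27. In simulated data, 200 of the 18407 H3K27ac regions were changed. A log2 change of 1 was recovered at 0 of them in the fit without the block, the blocked fit and the fit of recovered numbers. A change of 2 was recovered at 0, 127 and 182. How this bears on the calls near a log2 ratio of 1 was not tested. In the recovered values, 39 HOX regions were lower in 3 of 3 replicate numbers, compared with 59.9% of all regions, and every VPA library lay below every CTRL library at 32, compared with 28.1%. Without replicate 1 of either treatment, 12 HOX regions passed as lower and 0 as higher in the deposited fold enrichment, compared with 4.55% and 2.41% of all regions.

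The largest difference was at HOXB2, a hindbrain regulator (chr17:48542292-48549706), with fold enrichments of 23.3, 71.2 and 51.4 in CTRL and 8.58, 24.6 and 17.07 in VPA. Each VPA library lay below the CTRL library of its number, and VPA replicate 2 lay above CTRL replicate 1. The log2 ratio was -1.52 with a standard error of 0.21 in the blocked fit (limma adjusted p = 0.00249). Adjusted p-values for the regions named here and below are those of the blocked fit. In the fit without the block no HOX region passed. The region over HOXB8 and HOXB9 fell from 33.5, 78.4 and 128 to 16.0, 41.0 and 42.5 (log2 ratio -1.20, adjusted p = 0.00514 with the block in limma). The region over HOXD11 and the start of the HOXD10 gene model differed by -1.20 (standard error 0.21, limma adjusted p = 0.00426 with the block). Next to them, HOXD8 had 19.8, 53.0 and 47.5 in CTRL and 8.31, 22.7 and 26.3 in VPA (log2 ratio -1.11, limma adjusted p = 0.00587 with the block). HOXD3 had 16.0, 35.1 and 45.2 in CTRL and 8.45, 19.3 and 16.1 in VPA (log2 ratio -1.09, limma adjusted p = 0.00740 with the block).

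By cluster, the blocked limma fit called 7 of 10 regions lower in HOXC, 6 of 13 in HOXB, 5 of 10 in HOXA and 4 of 10 in HOXD, compared with 9.21% of all regions. In HOXC all 10 regions had a negative log2 ratio, between -1.17 and -0.46. They include a region with its summit in an exon of HOTAIR, a long non-coding RNA gene of the cluster. It had 29.9, 40.5 and 25.5 in CTRL and 9.96, 20.9 and 17.03 in VPA (log2 ratio -1.04, adjusted p = 0.0120 with the block in limma). In this region, which does not reach the HOTAIR TSS, CTRL and VPA did not overlap. At the HOTAIR TSS the values were 16.6, 44.6 and 31.4 in CTRL and 7.02, 14.96 and 21.1 in VPA, and the groups overlapped. The 61.7 kb HOXA block had 51.0, 118 and 100.3 in CTRL and 35.9, 72.2 and 48.5 in VPA (log2 ratio -0.75, limma adjusted p = 0.0310 with the block). Of 17 regions with a HOX TSS within 1 kb, 10 were called lower, and of the other 26 regions 12 were. The former were wider, with a median of 7.47 kb against 2.41 kb. Over all regions the share called lower rose from 1.90% in the lowest 10% by mean fold enrichment to 32.4% in the highest 10%. Whether a HOX TSS made a difference at a given level was not tested. The 3 regions with a positive log2 ratio were an intergenic region in the HOXA flank (0.50), a region in an intron of HOXD3 (0.09) and the promoter of HOXB13 (0.05), and 0 of them passed in any of the 3 fits. In the recovered fragment numbers the last 2 had negative ratios, and an intron region between HOXB7 and HOXB13 turned positive (0.20).

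Over all regions the log2 ratio became more negative with the level. The median was 0.15 in the lowest 10% of regions by mean fold enrichment and -0.55 in the highest 10%, which held 12 of the 43 HOX regions with a median of -0.88. With regions ordered by level into 10 bins of equal size, 38 of the 43 HOX regions lay below the median of their own bin, and the median difference was -0.44. In the highest bin, 8 of 12 HOX regions were lower in the blocked limma fit, compared with 32.4% of all regions of that bin. The peak caller's ratio has no external standard, so a shift shared by all regions cannot be told apart from a difference in library scale. With each library centred on its median, the blocked limma fit still called 20 HOX regions lower, beside 1119 of all 18407 regions.

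**Figure D4:**
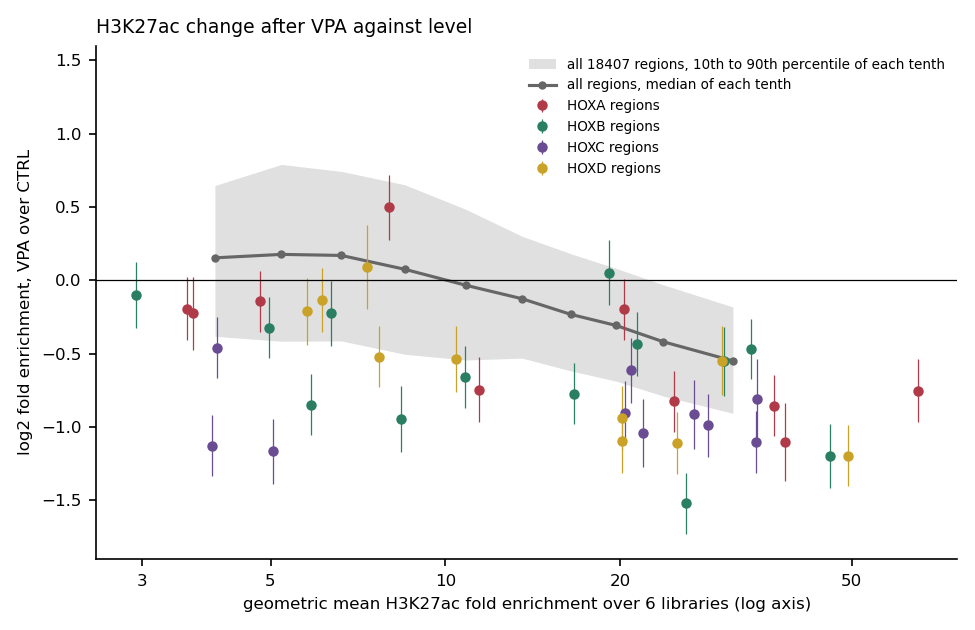
Log2 ratio of H3K27ac fold enrichment, VPA over CTRL, against the mean level of the region (log axis). Coloured points are the 43 HOX regions with a peak in all 6 lists with standard errors of the blocked fit; the grey line joins the medians of 10 bins of all 18407 regions and the grey band spans their 10th to 90th percentiles. The HOX points lie mostly below the grey line at every level, with 38 of 43 under the median of their bin.

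The number of peaks within the wide blocks of HOXC overlapped between the groups. The 31.7 kb region over HOXC11, HOXC10, HOXC6 and HOXC9 was made of 7, 3 and 2 peaks before treatment, in replicates 1, 2 and 3, and of 6, 6 and 4 after it. The 17.3 kb region over HOXC8 and HOXC4 went from 5, 2 and 2 to 3, 4 and 4 peaks, and the 18.8 kb region over HOXC5 from 4, 1 and 2 to 4, 3 and 2. The number was higher in VPA in replicate 2 in all 3 blocks, lower or equal in replicate 1, and higher in 2 of the 3 in replicate 3. The widest peak of the HOXC window measured 9.90, 22.1 and 22.9 kb in CTRL and 9.30, 10.4 and 10.5 kb in VPA, and the groups overlapped through CTRL replicate 1. Of the bases between the first and last HOXC gene, 11.5% were covered in at least 2 CTRL lists but not in at least 2 VPA lists, and 0.597% the reverse. In HOXA the corresponding shares were 1.04% and 1.80%, in HOXB 2.15% and 1.92%, and in HOXD 1.61% and 0.734%. Taken over all 43 regions, the number of peaks per region was 1.67, 1.21 and 1.302 in CTRL and 1.77, 1.40 and 1.40 in VPA, and the groups overlapped.

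Few HOX regions were found in 1 treatment only. Of 82 regions, 1 had a peak in 3 of 3 VPA lists and 0 of 3 CTRL lists, compared with 4.12% of all regions. It lay between genes, 6.45 kb from the TSS of PRAC1 (chr17:48715543-48716818), with fold enrichments of 3.28, 5.01 and 5.17. Its interval held no TSS of a HOX gene. The reverse pattern, 3 CTRL lists and 0 VPA lists, was found at 0 HOX regions and at 0.139% of all regions. Of the 39 HOX regions absent from some list, 21 had a peak in 1 list alone, a count that was not set against all regions. More VPA lists than CTRL lists were found at 25 of the 82 HOX regions, compared with 51.4% of all regions, and more CTRL lists at 9, compared with 7.64%. Of the 25, 11 lay in the HOXB window and 8 in the HOXA window. Without VPA replicate 1, the shortest VPA list, 3 regions met the VPA pattern, also without a comparison with all regions.

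The CTRL lists had 44, 68 and 61 CTCF peaks in the windows and the VPA lists 50, 64 and 61, with means of 57.7 ± 12.3 and 58.3 ± 7.37 (exact permutation p = 1, n = 3). They covered 4.39% ± 1.01 and 4.55% ± 0.739 of the bases (SD, n = 3, exact permutation p = 0.9). Merged over the lists there were 76 CTCF regions, of which 37 (48.7%) were present in all 6 lists, compared with 39.7% of all 69985 CTCF regions. They numbered 10 in HOXA, 14 in HOXB, 6 in HOXC and 7 in HOXD. A CTCF peak lay within 1 kb of the TSS of 12, 18 and 16 HOX genes in CTRL and of 15, 16 and 16 in VPA. In all 6 lists it was present at 11 genes (28.2%), compared with 24.3% of all genes, and in no list at 20 genes (51.3% against 58.1%). HOXA5, HOXA6, HOXA10, HOXB5, HOXC5, HOXC10 and HOXD13 were among the 11. With the TSS of any protein-coding transcript in place of that of the gene model, HOXA6 and HOXB3 had a CTCF peak in 0 lists. HOXB8 then had one in 6 lists in place of 0, HOXA9 and HOXC9 in 4 in place of 0, HOXA7 in 2 in place of 0, and HOXD11 in 0 in place of 3.

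Of the 11 promoters with a CTCF peak in all 6 lists, 6 had a mean fold enrichment above 50 over the 6 libraries. They were HOXB5, HOXA5, HOXC10, HOXC5 and HOXA10, whose sequences are given at the start, and HOXA6, which had no motif match. HOXA5, a regulator of lung and thoracic patterning, had CTCF fold enrichments of 43.2, 57.6 and 60.1 in CTRL and 119, 80.3 and 56.0 in VPA. HOXB5 had 55.3, 90.6 and 65.1 in CTRL and 104, 88.6 and 78.6 in VPA. HOXC10 had 48, 78.2 and 55.3 in CTRL and 80.2, 85.3 and 67.7 in VPA. HOXA10, a regulator of uterine and limb development, had 40.8, 82.1 and 44.3 in CTRL and 59.5, 78.7 and 54.1 in VPA. HOXA6 had 29.9, 62.6 and 47.4 in CTRL and 63.9, 78.55 and 58.5 in VPA. The groups overlapped at each of these 5, and HOXC5 is described with the sites where replicate 1 differed. The HOXD13 site, in its coding exon, ranged from 8.10 to 13.01. By contrast the peaks at HOXA13, HOXB3 and HOXB6 stayed at or under 4.48 in every library.

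Away from promoters, the intergenic site between HOXA7 and HOXA9, with a match of 0 mismatches, had 48.8, 89.0 and 74.0 in CTRL and 80.7, 91.2 and 97.0 in VPA. The site upstream of HOXB8 had 74.6, 60.1 and 67.5 in CTRL and 100.2, 87.6 and 80.2 in VPA, so that every VPA library lay above every CTRL library. Between HOXB7 and HOXB13, the LINC02086 site had 56.6, 90.4 and 84.8 in CTRL and 91.5, 144 and 69.2 in VPA. The site in the UTR of EVX2, beyond HOXD13, was the highest on average in HOXD, with 65.8, 120 and 94.7 in CTRL and 107, 109 and 119 in VPA. Beyond HOXA13, the higher of both flanking sites had 33.5, 44.9 and 57.8 in CTRL and 37.02, 50.9 and 48.6 in VPA. Inside HOXC, a site in an intron of HOXC6 had 40.4, 70.4 and 58.8 in CTRL and 55.1, 92.4 and 68.5 in VPA. Inside HOXD, the HOXD3 site had 43.1, 67.2 and 67.5 in CTRL and 80.2, 110 and 80.04 in VPA, with every VPA library above every CTRL library, and the site between HOXD13 and HOXD12 had 56.96, 108 and 80.5 against 75.04, 71.5 and 62.9. At the other end of HOXB, an intergenic site 38.3 kb from HOXB1 had 44.4, 87.8 and 58.0 in CTRL and 70.7, 88.1 and 57.3 in VPA. The weakest site of the 37 within a cluster was that in HOXB6, with 2.47 to 3.33.

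At some sites replicate 1 gave values unlike the other replicates. The HOXC5 promoter site had 5.44, 98.6 and 71.3 in CTRL and 4.51, 96.4 and 85.8 in VPA. Replicate 1 was more than 10 times lower than the others in both groups. The site in HOXC10 near HOXC6 had 7.46 and 10.1 in replicates 1 of CTRL and VPA and 25.6 to 30.8 in the other libraries, and a site between HOXA4 and HOXA5 had 7.03 and 13.03 against 43.7 to 77.6. At a site in LINC02086 (chr17:48671271-48672302), VPA replicate 1 stood alone with 7.65, against 48.5 to 82.9 in the other 5 libraries.

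**Figure D5:**
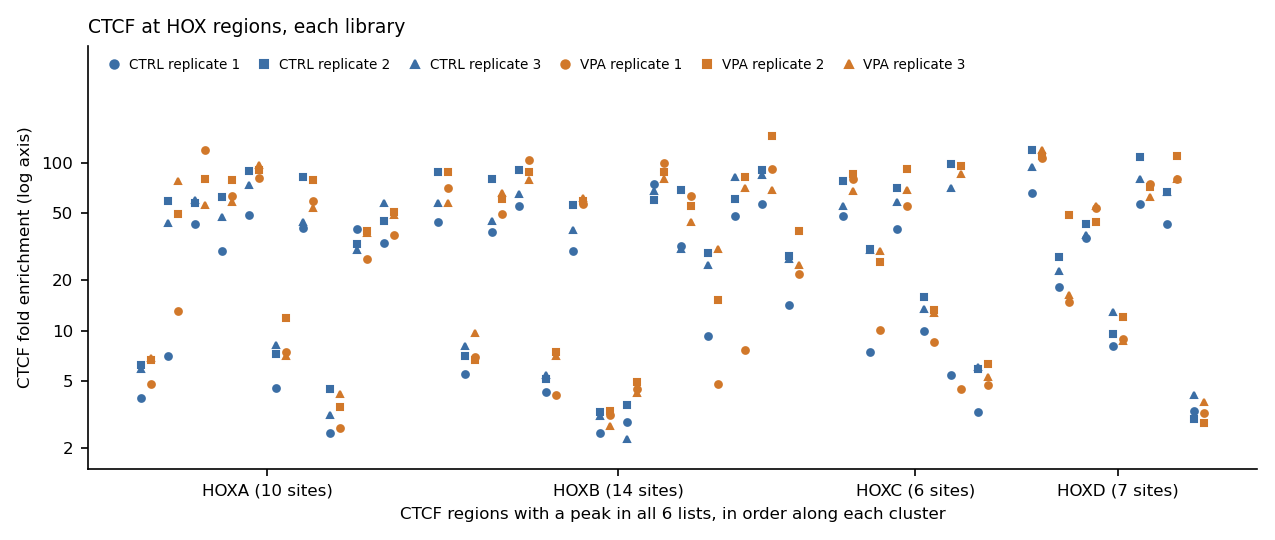
CTCF fold enrichment (log axis) at the 37 CTCF regions with a peak in all 6 lists, ordered along each cluster, in each library. Blue symbols are CTRL and orange symbols VPA, with circles, squares and triangles for replicates 1, 2 and 3. CTRL and VPA overlap at most sites, and circles of both groups fall far below the other symbols at a few sites, such as that of the HOXC5 promoter.

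The CTCF core motif, searched under that name on both strands with at most 2 mismatches within 100 bp of the summit, was matched at 24 of the 37 HOX regions present in all 6 lists. This is 64.9% with a 95% Wilson interval of 48.8% to 78.2%, compared with 72.2% of all CTCF regions present in all 6 lists, 56.3% of all CTCF regions and 5.37% of windows 2 kb away. Between the first and last gene of a cluster, 5 of 5 matched sites in HOXA lay on the minus strand, the strand of the HOXA genes. In HOXB, whose genes are also on the minus strand, 7 lay on the plus strand and 3 on the minus strand. HOXC had 2 on the plus strand, the strand of its genes, and HOXD had 1 on the plus strand and 2 on the minus strand. Beyond HOXA13, both matched flanking sites lay on the plus strand, so that they point away from the sites within HOXA. With at most 1 mismatch the share in HOX regions was 18.9%, compared with 41.7% of all regions present in all 6 lists. Matches are a description of the letters near the summit.

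Acetylation differed in extent on the sides of some CTCF sites. Between HOXD13 and HOXD12, peaks covered on average 92.7% of the 5 kb on the HOXD13 side and 27.1% on the HOXD12 side in CTRL, and 88.3% and 19.9% in VPA. At a site in HOXB3, 5.42 kb upstream of HOXB2, the shares were 74.6% on the HOXB2 side and 22.6% on the other in CTRL, and 71.1% and 19.3% in VPA. A site between HOXB4 and HOXB5 had 43.7% on the HOXB4 side and 100% on the HOXB5 side in CTRL, and 36.5% and 95.9% in VPA. At other sites both sides were covered: HOXA5 and HOXA10 had 100% on both sides in both treatments. The LINC02086 sites at 48663316 and 48678591 on chromosome 17 had 0% on both sides in both treatments. The order of the sides was the same in CTRL and VPA at the 3 sites named for their difference, which were chosen after their values were seen.

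No HOX region was called different between treatments in CTCF fold enrichment by limma. Among the 37 regions the median log2 ratio was 0.26 and 8 regions were lower in VPA, while the median of all 27794 regions was -0.02. At an adjusted p of 0.05, 0 HOX regions and 0% of all regions passed in either direction, with or without the recovered fragment numbers. At an unadjusted p of 0.05 in limma, 0 HOX regions passed, and 45 regions were lower and 45 higher among all. Without CTRL replicate 1 the HOX median was 0.03 and the median of all regions -0.39. Without VPA replicate 1 the medians were 0.33 and 0.30, in the same order. Every VPA library lay above every CTRL library at 5 HOX regions (13.5%), compared with 3.87% of all regions, and below at 0, compared with 2.24%. In 3 of 3 replicate numbers 10 HOX regions were higher, compared with 16.6% of all. In the recovered fragment numbers every VPA library lay above every CTRL library at 0 HOX regions, compared with 0.284% of all. With 200 of the 27794 CTCF regions changed in simulated data, a log2 change of 1 or 2 was recovered at 0 of them. A change of 3 was recovered at 41 and a change of 5 at 138. In these simulated data the fit therefore missed log2 changes of up to 2 and most changes of 3. How this carries over where more regions change was not tested. The lack of calls in the measured values does not show that CTCF was unchanged.

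No CTCF region of the windows was found in 3 lists of 1 treatment and 0 of the other, a pattern seen at 0.186% of all regions for VPA and 0.326% for CTRL. Promoter calls of CTCF changed by 2 or more lists at 0 HOX genes (1.01% of all genes gained and 1.05% lost 2 or more). Regions whose list number differed by 2 were weak. A region in HOXC6 (chr12:54012976-54013584) had 3.05, 6.42 and 6.05 in CTRL and 3.37 in VPA replicate 2 alone, and a region in HOXA9 (chr7:27164127-27164811) had 5.02 in CTRL replicate 2 and 4.26, 7.23 and 6.28 in VPA. The covered share of HOXC was 2.67%, 4.61% and 4.12% before treatment and 2.08%, 3.99% and 3.58% after it (exact permutation p = 0.5), lower at each replicate number and overlapping between groups.

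Of 18 neighbouring genes and non-coding RNAs of the clusters, 14 had an H3K27ac peak at the TSS in all 6 lists, where 58.1% of all protein-coding genes did, among them HOTAIR and HOTTIP, which are long non-coding RNAs of the HOXC and HOXA clusters. HOTTIP, next to HOXA13, had 15.1, 47.9 and 49.3 in CTRL and 8.52, 30.3 and 24.9 in VPA. These are also the values of the HOXA13 promoter, and other non-coding RNAs of the list shared the peak of a HOX promoter too. The count of 14 therefore includes HOX peaks already described. The 58.1% covers protein-coding genes only, so it is not a share for genes of the same kind. EVX2, a homeobox gene beside HOXD13, had 0 peaks, and EVX1, beside HOXA13, had 1 CTRL and 1 VPA list. TTLL6, beyond HOXB13, was the only gene of the 18 whose calls differed by 2 lists, with a fold enrichment of 2.78 in CTRL replicate 2 and of 3.14, 5.57 and 5.22 in VPA. Of the 18, CTCF was present in all 6 lists at 2, where 24.3% of all protein-coding genes had it.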

How the data were processed

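Peak lists of 12 ChIP libraries (H3K27ac and CTCF, CTRL and VPA, 3 replicates each) were used. Per the labels and the methods, the authors aligned paired reads to hg38 with Bowtie2 and called peaks in each library with MACS (MACS3 3.0.0a7 in the labels) at a q-value of 0.05. The deposited fold is the ratio of summit signal to local background; the deposited −log10 p-value and −log10 q-value are the peak caller's. The deposited score was not used.

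Groups and replicate numbers came from the titles. The members, gene lists and tests were chosen with earlier results of these data known. Peaks sharing at least 1 bp were merged into union regions in Python 3.11.15 (numpy 2.4.6, pandas 2.3.3, matplotlib 3.10.9, samtools 1.23.1). A peak belonged to a window or TSS if it shared at least 1 bp. Positions were annotated with GENCODE 44. Sums per library were compared by exact two-sided permutation tests. Fold enrichment of the highest peak of each library was fitted as log2 values with limma 3.58.1 (R 4.3.3) over all regions with a peak in all 6 lists, with Benjamini-Hochberg adjustment. The summit pileup was recovered from fold and p-value, and 100% of recovered pileups were whole within 0.05. Tests were checked on simulated data.

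Replicate numbers come from the titles, which name no shared day or batch. In H3K27ac, deviations of same-numbered CTRL and VPA libraries correlated at 0.865, 0.585 and 0.591, so the blocked fit is given beside the other. Replicates 2 and 3 correlated as much across numbers (0.607 and 0.554).

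Named with values were the 3 genes of each cluster with the highest mean H3K27ac fold enrichment, genes without a peak or with calls differing by 2 lists, and CTCF regions in all 6 lists. Alternatives covered the peak threshold, list length, overlap, window, TSS, scaling, block and leaving out libraries. Some genes of the lists are not reported here by name. Counting intervals cover counting error only.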

Additional observations from a re-analysis of the deposited data

How the results depend on the processing

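Of 322 alternative values, 245 were counted as the same, 28 changed sign and 49 moved. For differences between group means, the same meant that the sign did not reverse. For limma it meant a count close to the main count or a median within the spread between replicate numbers. The motif share had to stay within its interval. The side of a p-value threshold was not compared. Differences below are VPA minus CTRL, and the cause of a shift was not tested. With equal list lengths the H3K27ac peak number differed by -2.33 and the HOXA share by -0.66 percentage points, and 1 region was found only in CTRL. With no flank the HOXA share differed by -0.0237. HOX promoters with H3K27ac differed by 0.333 with a stricter q-value and by 2 when the summit had to lie within 1 kb. With summits merged with 150 bp added, 2 H3K27ac regions were found only in VPA and 2 only in CTRL. With at most 1 mismatch the CTCF motif share was 18.9%.

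At the 43 H3K27ac regions of HOX, limma called 0 lower without the replicate block, 22 with it and 20 with the block and centred libraries. Recovered pileups gave 27, and 36 with the block, where 1 was called higher. Over all 18407 regions these settings called 0, 1695, 1119, 2642 and 9365 lower, in the same order. The pileups with the block called 2389 of all regions higher. The median log2 ratio was -0.66 with centred libraries and -0.94 from pileups. The block with centred libraries, the pileups with the block or with libraries left out, and leaving out replicate 1 of both treatments were chosen after seeing the data. For CTCF the replicate numbers did not pair (correlations of 0.340, -0.0451 and 0.477), and the block called 0 HOX regions. The exact test of within-number differences gave p = 0.25 for H3K27ac peak number and share, its smallest value.

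Leaving out libraries gave differences of 10 to 16 for H3K27ac peaks, -3.25 to 1.01 for the share, -0.833 to 0.167 for promoters, -0.973 to 3.57 for HOXA, -1.80 to 1.301 for HOXB, -8.27 to -1.34 for HOXC and -2.32 to 0.469 for HOXD. For CTCF they were -6.17 to 5.83 peaks, -0.411 to 0.551 for the share, -1.33 to 1.67 promoters, -0.0437 to 1.09 for HOXA, -0.152 to 0.680 for HOXB, -1.15 to -0.0179 for HOXC and -0.380 to 0.727 for HOXD. Regions only in VPA numbered 1 to 3 (H3K27ac) and 0 to 2 (CTCF), and CTCF regions only in CTRL 0 to 1. H3K27ac regions called lower in limma ranged from 0 to 38 and higher from 0 to 1, with medians from -1.06 to -0.33. These extremes came without CTRL replicate 1 and without VPA replicate 1, where the medians of all regions were -0.54 and 0.19. CTCF medians ranged from -0.28 to 0.50 over both measures and from 0.0280 to 0.48 in fold enrichment. The extremes in fold enrichment came without CTRL replicate 1 or 2, where the medians of all regions were -0.39 and 0.21. From H3K27ac pileups, 25 HOX regions were lower without CTRL replicate 2, 33, 12 and 16 without VPA replicate 1, 2 or 3, and 38 without replicate 1 of both. The medians were -0.96, -1.01, -0.82, -0.88 and -0.99. Of all 18407 regions, 1860, 7039, 158, 408 and 9241 were lower in these settings. Leaving out CTRL replicate 1 or 3 gave 27 HOX regions with medians of -0.79 and -0.97, beside 1697 and 2534 of all regions. From CTCF pileups the medians were 0.0278 and -0.0030 without CTRL replicate 2 or 3, 0.47 without VPA replicate 3 and 0.0664 without replicate 1 of both. Peak lists hold no read totals, so depth limits are known only from the background coverage.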

Other observations

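H3K27ac calls at the TSS of genes that work with HOX proteins or regulate the clusters are given beside the 58.1% of all protein-coding genes with a peak in all 6 lists and the 32.9% with none. Of 9 genes of PBX, MEIS and PKNOX cofactors, which bind DNA together with HOX proteins, 8 had an H3K27ac peak in all 6 lists. Of 18 Polycomb genes, which encode the silencing complexes of HOX clusters, 17 had a peak in all 6 lists and EED had none at the TSS of its gene model. All 9 genes of the activating complexes, among them KMT2A and MEN1, had a peak in all 6 lists.

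Of 10 ParaHox and HOX-like genes, 3 had an H3K27ac peak in all 6 lists and 5 in none, beside the same 58.1% and 32.9% of all genes, and no difference between gene groups was tested. CDX2, a regulator of HOX genes in the caudal embryo and gut, had fold enrichments of 17.4, 53.9 and 40.7 in CTRL and 8.01, 27.3 and 30.5 in VPA. Of 8 retinoic acid genes, 1 had a peak in all 6 lists. This was CYP26A1, which degrades retinoic acid, with 5.54, 10.7 and 16.3 in CTRL and 3.58, 9.50 and 9.80 in VPA, and the groups overlapped.

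In the list of other cell types, MYOD1, the muscle regulator, had 0 CTRL lists and 2 VPA lists, with fold enrichments of 6.51 and 5.54 in VPA replicates 2 and 3. A CTCF peak was present there in all 6 lists, with 17.5, 34.6 and 30.2 in CTRL and 21.6, 43.5 and 37.0 in VPA.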
